A study of Mus musculus with 4 samples.

Results

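Mitochondrial ribosomal proteins were followed in spinal motor neurons of mice transgenic for wild-type or G85R SOD1-YFP. The members were every deposited gene entry whose symbol began with Mrpl (large subunit) or Mrps (small subunit) and a number, which gave 77 of 27189 entries and 75 different symbols. Of these entries 48 had an Mrpl name and 29 an Mrps name. The 29 include Mrps18a, Mrps30 and Mrps36, which are named for the small subunit but were listed outside it. Mrpl42 was not analysed here.

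Polyadenylated RNA was sequenced from motor neurons whose cell bodies, 3000 to 4000 in each animal, were cut by laser from the ventral horn of the spinal cord, 1 library per mouse. All 4 mice were 3 months old, on a C57BL/6J x SJL/J background, and carried a human SOD1 genomic transgene fused to YFP. The 2 wild-type mice came from strain 592 (wild-type SOD1-YFP) and the 2 G85R mice from strain 737, which expresses the ALS-linked G85R mutant and develops paralysis after this age. Strain 737 is homozygous for an insertion on chromosome 4 and has a higher transgene copy number, and cells with large fluorescent aggregates were left out of its capture. The comparison asked which RNA levels differed in mutant motor neurons before symptoms. SOD1 mutation, insertion site, copy number and strain cannot be told apart with these 4 mice, and in bulk RNA fewer cells of a type and less RNA per cell cannot be told apart either.

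The mitochondrial ribosome makes the few membrane proteins of the respiratory chain that the mitochondrial genome encodes. Its ribosomal RNAs come from that genome, but all of its proteins are encoded in the nucleus, made in the cytosol and imported, so the organelle depends on many nuclear genes being expressed together. Many of these proteins descend from bacterial ribosomal proteins, whereas others have no bacterial counterpart and were added in the mitochondrial lineage. Mutations in several of them cause human mitochondrial disease, and motor neurons, with their long axons, hold many of their mitochondria far from the cell body captured here.

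Values are RPKM, read densities scaled to transcript length and to the mapped reads of the library, so levels can be roughly compared between genes. The paper could not evaluate Hspa8 because of processed pseudogenes, and such copies were not examined for the members. Estimated reads on genes were 23500000 and 25200000 for the wild-type mice, against 21600000 and 23000000 for the G85R mice. Summed RPKM of 7 motor neuron markers (such as Chat) was 2460, 2710, 2190 and 2560 in wild-type replicates 1 and 2 and G85R replicates 1 and 2. All 7 were detected and tested by limma, with 1 higher in G85R, 0 called and 1 at an unadjusted p under 0.05. The sums of 6 astrocyte markers were 33.8, 37.1, 124 and 49.0, those of 7 microglial markers 13.9, 15.7, 33.5 and 16.7, and those of 6 oligodendrocyte markers 860, 807, 1030 and 786. The glial sums were thus highest in G85R replicate 1, and 0 of these glial markers was called by limma, while 3 had an unadjusted p under 0.05. Of those tested, 5 of 6 astrocyte, 5 of 5 microglial and 3 of 6 oligodendrocyte markers were higher in G85R. Endothelial markers summed to 6.72 to 8.88 in the 4 libraries, and globin RNA to 2.23 and 2.62 in wild type against 12.8 and 12.1 in G85R, with both entries of Hbb-b1 called by limma. The part of other cells in the member values was not tested.

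The members lay on 17 chromosomes of the NCBIM37 assembly (mm9), and the most on 1 chromosome were the 10 on chromosome 11. A frequent shared feature was the start of another coding gene close by on the opposite strand. Of the 75 members, 28 (37.3%) had such a start within 1000 bases, against 10.8% of all 22380 annotated coding genes and 15.9% of the 9681 coding genes tested here. In 1 of these arrangements both genes were members: Mrpl46 and Mrps11 ran in opposite directions from starts that overlapped. Other partners had mitochondrial roles, including Ndufb5 (a complex I subunit) beside Mrpl47, Peo1 (the mitochondrial DNA helicase) beside Mrpl43 and Sars2 (the mitochondrial seryl-tRNA synthetase) beside Mrps12.

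Promoter windows from RefSeq (GRCm38.p6), from 250 bases before to 50 bases after the annotated start, were matched by gene ID for 66 member genes, 72 windows in all. They were searched on both strands for letters bound by factors associated with nuclear genes for mitochondrial proteins. The NRF-1 motif, a palindrome of 10 bases shown in capitals in the next paragraph, was found in 3 of the 66 genes (4.55%, against 1.07% of 27025 genes and 2.37% of the 7804 tested genes with a window). The YY1 motif AAGATGGCG was found in 7 (10.6%, against 1.64% and 3.86%) and the ETS-family motif CCGGAAG in 24 (36.4%, against 9.93% and 20.3%). General promoter motifs were not more frequent in the members. CCAAT was in 39.4% of members, 41.1% of all genes and 43.1% of tested genes, and TATAAA in 7.58%, 15.7% and 8.19%.

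All 3 stretches with the NRF-1 motif belonged to the large subunit and are shown with the motif in capitals, written 5′ to 3′ on the strand of the gene. The motif began at -87, -125 and -28 relative to the start in Mrpl32 (chr13:14613105-14613134, minus strand), Mrpl39 (chr16:84735350-84735379, minus strand) and Mrpl9 (chr3:94443298-94443327, plus strand).
Mrpl32: tttgacccttGCGCATGCGCaagaggggcc
Mrpl39: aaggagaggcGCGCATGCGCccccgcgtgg
Mrpl9: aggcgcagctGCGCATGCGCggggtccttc

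The YY1 motif is shown because of its position: in 5 of the 7 genes it read in the direction of the gene and began 12 to 37 bases after the start, whereas in Mrpl36 and Mrps11 it read in the opposite direction and began at -31 and -108. These letters contain ATG, the letters of a start codon, and could therefore also be coding sequence, which was not examined. The stretches lie at chr6:71823742-71823771 (Mrpl35, minus strand), chr13:73330968-73330997 (Mrpl36, plus strand), chr4:107066821-107066850 (Mrpl37, minus strand), chr7:78783013-78783042 (Mrps11, plus strand), chr17:46111005-46111034 (Mrps18a, plus strand), chr11:5707652-5707681 (Mrps24, minus strand) and chr13:99344790-99344819 (Mrps27, plus strand). The motif is in capitals, again on the strand of the gene.
Mrpl35: ggcaggctgcAAGATGGCGgcttccatctt
Mrpl36: cgtgaccttaCGCCATCTTtcttcctggcg
Mrpl37: tgcacgggcaAAGATGGCGgcgtccaggta
Mrps11: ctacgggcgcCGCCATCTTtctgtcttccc
Mrps18a: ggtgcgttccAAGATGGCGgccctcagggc
Mrps24: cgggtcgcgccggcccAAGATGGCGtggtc
Mrps27: ggtgcgctccAAGATGGCGgctcccatggt

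ETS motifs are shown, in capitals, for members whose RNA levels are described in detail further on: Mrps18a (chr17:46110967-46110996, plus strand), Mrps23 (chr11:88204392-88204421, plus strand, motif on the opposite strand) and Mrpl33 (chr5:31613937-31613966, plus strand). Mrps10 held only CCAAT, and the windows of Mrpl55, Mrps5 and Mrps6 held none of the 5 motifs.
Mrps18a: acacccctgctCCGGAAGcggaagtgcaca
Mrps23: tgccgcttccgCTTCCGGtaacagcccgag
Mrpl33: ccgcgcatgccCCGGAAGtagtcgttgagc

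**Figure D1:**
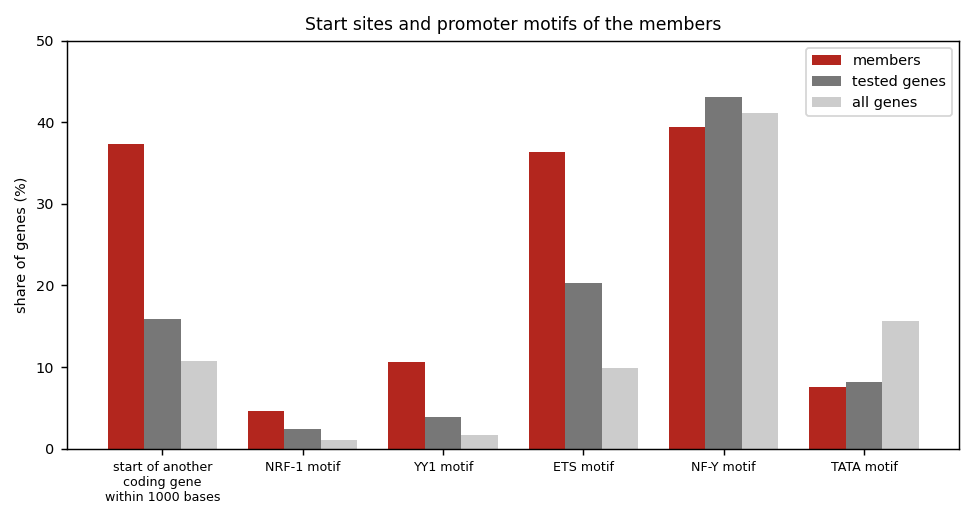
Share of genes (%, vertical axis) with the start of another coding gene within 1000 bases on the opposite strand, and with each motif in the promoter window, for the members (red), the tested genes (dark gray) and all genes (light gray). The members stand above both backgrounds for neighboring starts (37.3%) and for ETS motifs (36.4%) and not for the NF-Y motif (CCAAT, 39.4%).

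Motor neurons expressed nearly the whole set. Of the 77 entries, 74 reached a mean of 1 RPKM over the libraries and were tested (45 Mrpl and 29 Mrps), with a median of 34.5 RPKM and quartiles of 19.8 and 46.5, compared with a median of 10.1 RPKM over the 11530 tested entries. The median was 36.2 RPKM for Mrpl genes and 28.4 RPKM for Mrps genes. For scale, 36 tested complex I subunits had a median of 215 RPKM.

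Among Mrpl genes the highest levels were those of Mrpl20 (96.0, 105, 99.2 and 106 RPKM in wild-type replicates 1 and 2 and G85R replicates 1 and 2, the order used throughout), a protein that in bacteria binds ribosomal RNA early in assembly. Mrpl28 followed at 76.0, 88.8, 83.4 and 87.9 RPKM, and Mrpl12, the stalk protein that also binds the mitochondrial RNA polymerase, at 89.6, 85.8, 76.2 and 81.6 RPKM. Mrpl54 had 71.7, 69.4, 76.6 and 72.8 RPKM and Mrpl13 71.1, 58.4, 68.0 and 57.2 RPKM. The ranges of Mrpl28 and Mrpl12 overlapped, as did those of Mrpl54 and Mrpl13, and Mrpl20 stood above all of them in every library.

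The least abundant tested Mrpl genes were Mrpl1 (9.18, 6.37, 6.43 and 6.44 RPKM), a protein of the stalk near the tRNA exit site, and Mrpl19 (8.05, 7.49, 7.60 and 7.02 RPKM), whose ranges overlapped. Above them came Mrpl41 at 13.5, 13.1, 13.1 and 14.7 RPKM, Mrpl27 at 13.1, 15.0, 15.4 and 16.1 RPKM, and Mrpl51 at 15.2, 16.4, 14.3 and 16.2 RPKM. These 3 overlapped with one another and were clear of Mrpl1 and Mrpl19 in every library.

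Mrps12, a protein of the decoding center, had the highest mean of the Mrps genes with 69.4, 90.4, 73.2 and 85.3 RPKM, though Mrps6 and Mrps18a stood above it in G85R replicate 1. Mrps21 had 64.8, 50.6, 71.3 and 50.3 RPKM and Mrps7 54.3, 50.6, 50.5 and 48.9 RPKM, and the other 2 of the highest 5, Mrps18a and Mrps6, are described with the genotype differences. At the low end, Mrps33 was at 2.60, 2.24, 2.68 and 2.32 RPKM and Mrps36 at 2.72, 3.63, 2.48 and 2.76 RPKM. Mrps36 is named for the ribosome but its product belongs to the 2-oxoglutarate dehydrogenase complex. Mrps18b, with 8.97, 8.22, 7.29 and 8.27 RPKM, and Mrps5 and Mrps10 completed the lowest 5.

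Of the entries not tested, Mrpl23 (a protein at the exit tunnel) was close to the limit of detection at 0.176, 0.221, 0.129 and 0.0606 RPKM, an estimated 3, 4, 2 and 1 reads. The 7 other proteins listed at the exit tunnel had mean levels of 16.5 to 50.9 RPKM. Second entries of Mrpl33 and Mrpl38 were listed at 0 in all 4 libraries, whereas the first entry of Mrpl38 had 42.4, 44.3, 44.0 and 42.6 RPKM.

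**Figure D2:**
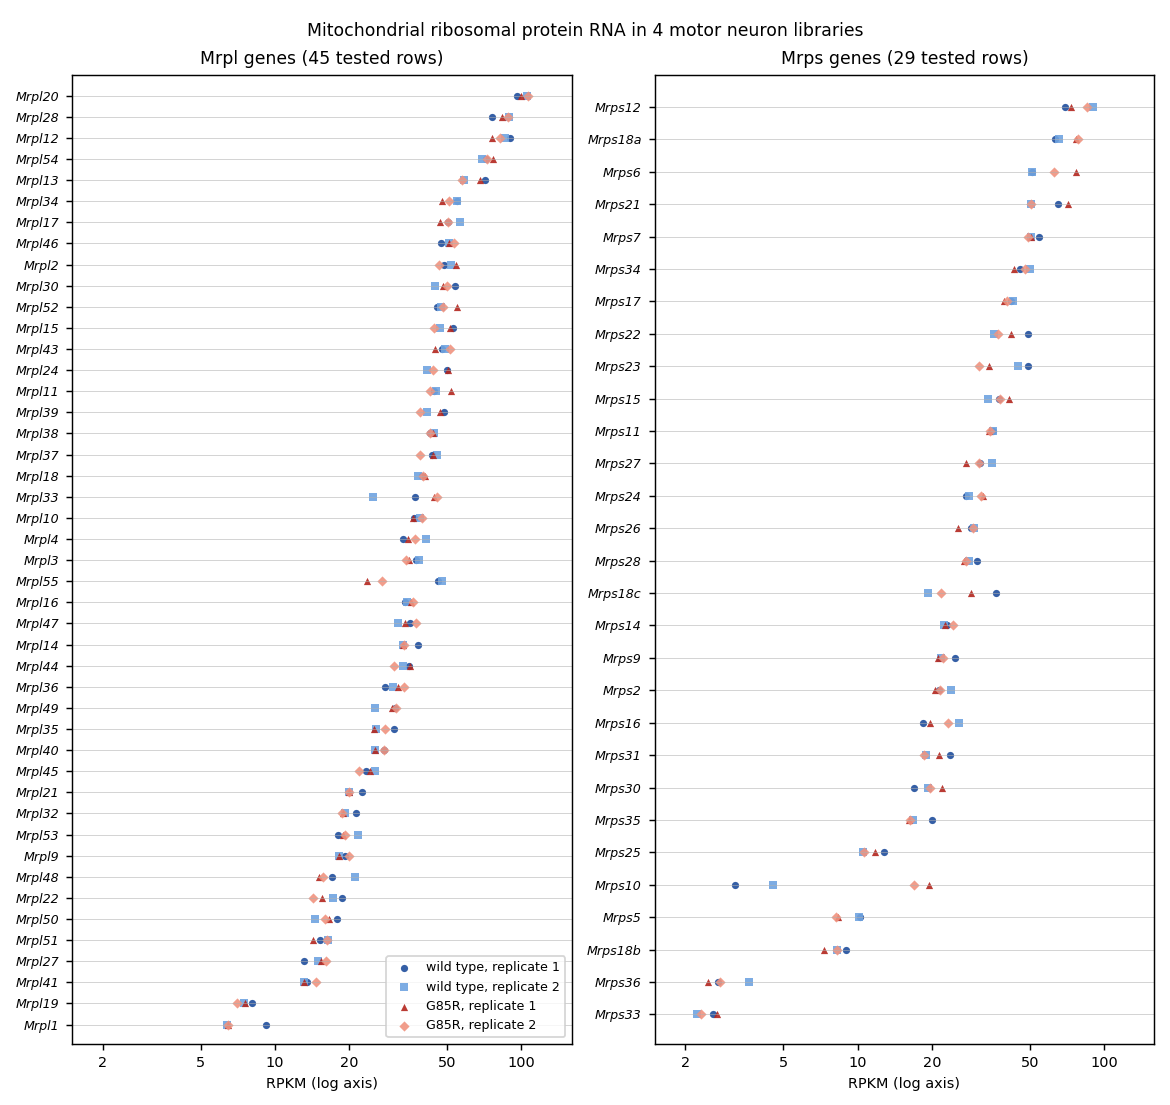
RPKM (horizontal log axis) of each tested Mrpl (left) and Mrps (right) gene in the 4 libraries, blue for wild type and red for G85R, ordered by mean. Most genes show 4 nearly coincident points, and Mrps10 and Mrpl55 differ most between genotypes. The genotypes do not overlap in 30 of the 74 genes (40.5%, against 41.2% of all tested entries).

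As a set, the mitochondrial ribosome differed little between genotypes. Summed RPKM of Mrpl genes was 1740 and 1710 for the wild-type mice against 1710 and 1690 for G85R, and that of Mrps genes 904 and 880 against 919 and 891. On the log2(RPKM + 0.1) scale used for all fold changes (G85R over wild type), 68 of the 74 tested members lay within 0.3 of 0, against 9520 of the 11530 tested entries. The median size of the change was 0.085 for the members and 0.124 for all tested entries, beside median differences between replicates of the same genotype of 0.139 (wild type) and 0.121 (G85R) for the members.

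Directions were described by counts, without a test of the list. Log2 fold changes were positive for 27 members and negative for 47 (36.5% higher, against 45.3% of all tested entries), with a median of -0.048 against -0.021. Without wild-type replicate 1 the share was 48.6% of the members against 46.2% of all tested entries, and without G85R replicate 1 it was 41.9% against 42.9%. Without wild-type replicate 2 it was 37.8% against 45.2%, and without G85R replicate 2 43.2% against 49.2%. The lower share thus depended on single libraries of both genotypes. The median was -0.011 for Mrpl genes (18 higher, 27 lower) and -0.073 for Mrps genes (9 higher, 20 lower), and the latter was -0.026 without wild-type replicate 1. After rescaling of the libraries by their median ratio, 33 members were higher and the medians were 0.012 for Mrpl genes and -0.050 for Mrps genes, so the direction of the Mrpl median was not stable.

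Structural groups were compared in the same way. Large subunit proteins with a bacterial counterpart (28 tested) had a median log2 fold change of -0.026, and those specific to mitochondria (17 tested) of -0.011. Small subunit proteins with a bacterial counterpart (16 tested) had a median of -0.038. The 3 members with Mrps names outside the small subunit (Mrps18a, Mrps30 and Mrps36) had a median of 0.195, with 2 higher in G85R. Their summed RPKM was 82.8 and 88.7 in wild type against 101 and 101 in G85R. Mrps30 had 17.0, 19.3, 22.0 and 19.6 RPKM. The 10 mitochondria-specific small subunit proteins had a median of -0.092 with 9 lower in G85R (10.0% higher, against 45.3% of all tested entries). Their summed RPKM was 272 and 252 in wild type against 232 and 233 in G85R, and these sums did not overlap. In a sum without Mrps23, added after the values had been seen, they were 223 and 207 against 198 and 201. Gene by gene, 3 of the 10 did not overlap between genotypes (30.0%, against 41.2% of all tested entries). None of these 10 was called on its own by limma, and 1, Mrps23, had an unadjusted p under 0.05.

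Proteins around the peptide exit tunnel, where the nascent chain leaves toward the inner membrane, had a median of -0.054 over 7 tested genes with 0 called. The 4 stalk proteins Mrpl1, Mrpl10, Mrpl11 and Mrpl12, which line the entry and exit of tRNAs and factors, had a median of -0.076 and 2 of each sign. A chosen list of human mitochondrial disease genes, not meant to be complete, held 9 members (Mrpl3, Mrpl12, Mrpl44, Mrps2, Mrps7, Mrps14, Mrps16, Mrps22 and Mrps34). These 9 ranged from -0.15 to 0.04, and 8 were negative (11.1% higher, against 45.3% of all tested entries). The lowest was Mrpl12 (SE 0.10, unadjusted p = 0.164, adjusted p = 0.657, limma with Benjamini-Hochberg adjustment).

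**Figure D3:**
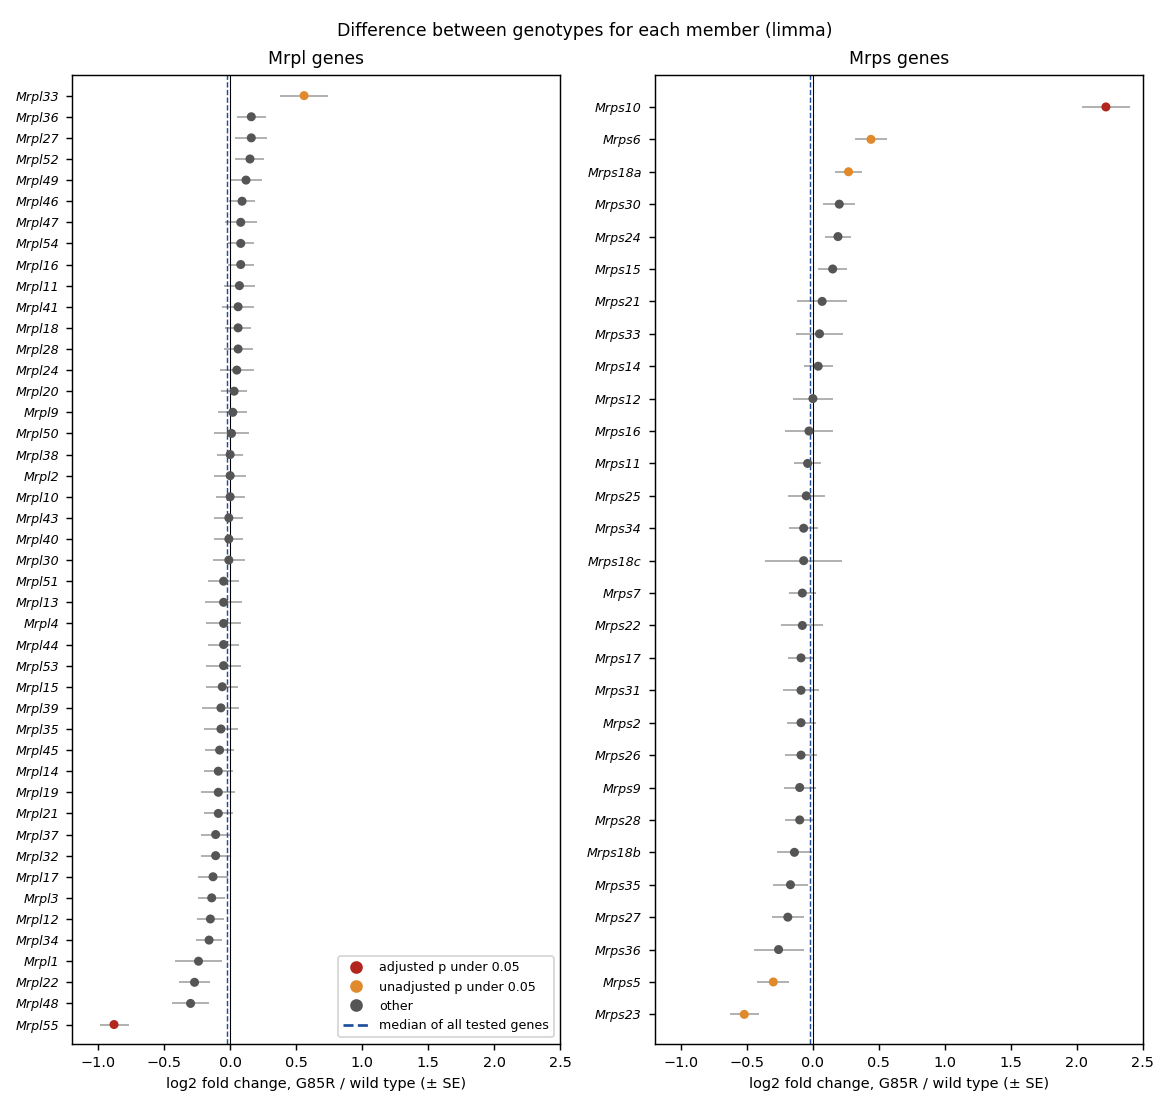
Log2 fold change (G85R over wild type, horizontal axis) of every tested member with its SE from limma, red where the adjusted p was under 0.05, orange where only the unadjusted p was. The dashed line marks the median of all tested genes (-0.021). Nearly all members cluster around it, and Mrps10 (2.22) and Mrpl55 (-0.88) stand apart.

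Only Mrps10 and Mrpl55 among the members passed limma's test at an adjusted p under 0.05. This was 2 of 74, where 0.642% of all tested entries passed (0.269% higher and 0.373% lower in G85R). At an unadjusted p under 0.05 there were 7 members, against 11.0% of all tested entries. The 2 genotypes did not overlap in 30 members (40.5%; 14 higher and 16 lower in G85R), against 41.2% of all tested entries (17.3% higher, 23.9% lower), so complete separation was about as common in the members as elsewhere. For 1 gene, exact permutation of 2 against 2 mice gives a two-sided p of 0.333 at the lowest. A log-linear likelihood ratio test used rounded RPKM values to which the authors had added 1 read. It was kept as an alternative because RPKM are not counts. It called 1 of the 77 entries, Mrps10, where it called 62 of the 11530 tested entries (0.228% of all 27189). In it 5 of the 74 tested members had an unadjusted p under 0.05, 3 higher and 2 lower in G85R. Of all 11530 tested entries, 215 were higher and 125 lower at that threshold. The share over all 27189 entries was 1.29%, but most of these were below a mean of 1 RPKM.

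Mrps10 encodes a small subunit protein with a bacterial counterpart and lies at chr17:47505836-47518366 (NCBIM37, plus strand). It had 3.19 and 4.53 RPKM in the wild-type libraries and 19.4 and 17.0 RPKM in the G85R libraries, so that one of the least abundant Mrps RNAs in wild type stood above Mrps5, Mrps18b and Mrps25 in G85R. The genotypes did not overlap. The log2 fold change was 2.22 (SE 0.18), a 4.67-fold rise with an adjusted p of 0.00421 by limma with Benjamini-Hochberg adjustment. Without a filter on low entries the adjusted p was 0.36 at the same fold change, and in the log-linear test it was 0.00616. The gene overlapped no other coding gene, and the 6 tested genes that matched an annotated coding gene within 250 kb by symbol had log2 fold changes of -0.16 to 0.28, none of them called by limma.

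Mrpl55, a large subunit protein without a bacterial counterpart, lies at chr11:59015988-59019636 (plus strand). Its RPKM was 45.9 and 47.5 in wild type and fell to 23.6 and 27.2 in G85R, again without overlap. This was a 1.84-fold fall (log2 fold change -0.88, SE 0.11, adjusted p = 0.0312 by limma). The call was lost without wild-type replicate 2 (adjusted p = 0.0505), without G85R replicate 1 (0.0574), without a filter on low entries (0.365) and in the log-linear test (0.118). Of the 8 tested genes matched by symbol within 250 kb none was called by limma. Among them Guk1, a guanylate kinase, had a log2 fold change of 0.51 (171 and 180 RPKM in wild type, 241 and 258 in G85R, adjusted p = 0.0933).

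Next came 5 members that did not pass after adjustment. Mrps23, a small subunit protein specific to mitochondria (chr11:88017890-88025009), had 49.0 and 44.6 RPKM in wild type against 34.2 and 31.2 in G85R (log2 fold change -0.52, SE 0.11, unadjusted p = 0.00235, adjusted p = 0.129, limma). Its values did not overlap between genotypes. Mrps5 (chr2:127412958-127432565), a small subunit protein with a bacterial counterpart, had 10.2 and 10.1 RPKM against 8.31 and 8.14 (log2 fold change -0.30, SE 0.12, adjusted p = 0.417, limma), also without overlap.

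Mrps6, with a bacterial counterpart (chr16:92058515-92112472), had 51.0 and 51.1 RPKM in wild type against 76.7 and 62.6 in G85R (log2 fold change 0.44, SE 0.12, adjusted p = 0.248, limma). It was highest in G85R replicate 1, the library with the highest glial marker sums. It shares exon bases with Slc5a3, an inositol transporter gene on the same strand, which was at 1.38, 1.74, 1.57 and 1.35 RPKM. Mrps18a, named for the small subunit but found in the large one (chr17:46247935-46265859), had 63.1, 65.8, 76.6 and 78.4 RPKM (log2 fold change 0.27, SE 0.10, adjusted p = 0.382, limma). Both G85R values lay above both wild-type values.

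Mrpl33 had 37.1 and 24.9 RPKM in wild type against 44.2 and 45.4 in G85R (log2 fold change 0.56, SE 0.18, adjusted p = 0.333, limma). Its wild-type replicates lay farther apart than the nearer of them lay from G85R, and wild-type replicate 2 set the size of the difference, which was 0.27 without it and 0.84 (adjusted p = 0.0296) without wild-type replicate 1. In the annotation Mrpl33 shares exon bases with Bre on the same strand, so its reads are uncertain.

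Of the 3 largest rises and 3 largest falls in each subunit, those not yet described did not pass the test. Mrpl36 (28.0, 30.2, 31.6 and 33.5 RPKM) and Mrpl27 both had a log2 fold change of 0.16, Mrpl48 (17.1, 21.1, 15.1 and 15.7 RPKM) -0.30, Mrpl22 at the exit tunnel (18.8, 17.2, 15.6 and 14.3 RPKM) -0.27 and Mrps36 -0.26, with adjusted p from 0.472 to 0.708 by limma. The genotypes did not overlap in Mrpl36, Mrpl27, Mrpl48 and Mrpl22 and overlapped in Mrps36. Single libraries decided part of these values: without wild-type replicate 2, Mrpl48 was at -0.15 and Mrps36 at -0.06, and without wild-type replicate 1, Mrpl27 was at 0.06.

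**Figure D4:**
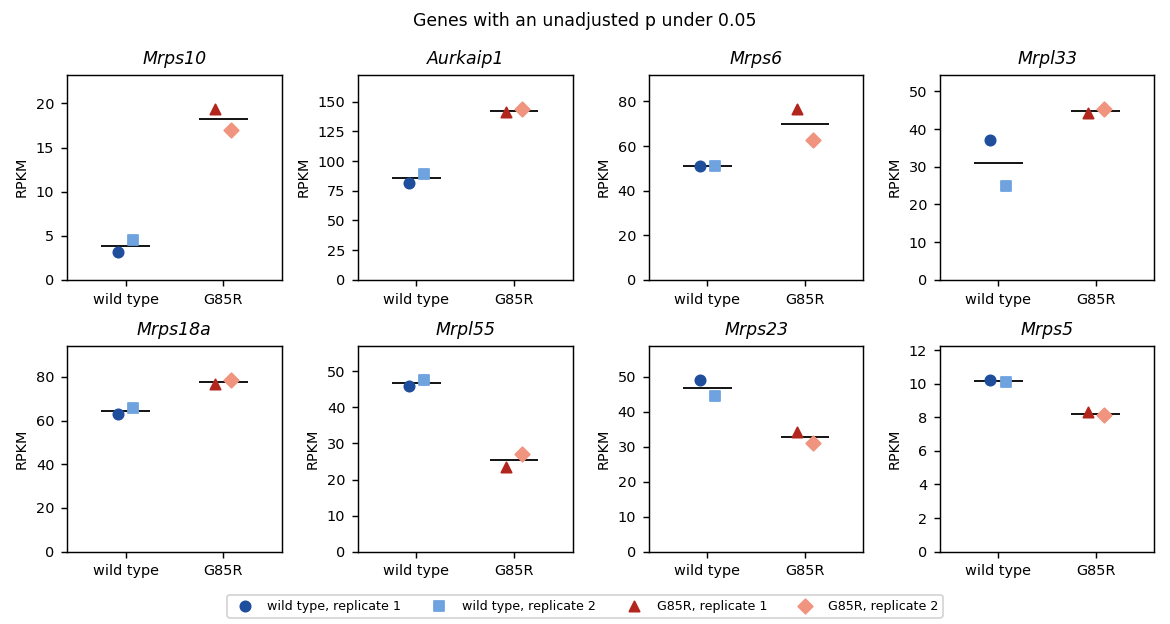
RPKM (vertical axis, from 0) in each library for the 7 members with an unadjusted p under 0.05 and for Aurkaip1, with horizontal lines at the genotype means. Mrps10 and Aurkaip1 are higher and Mrpl55 lower in both G85R mice, and the wild-type values of Mrpl33 (37.1 and 24.9 RPKM) are spread widely.

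**Figure D5:**
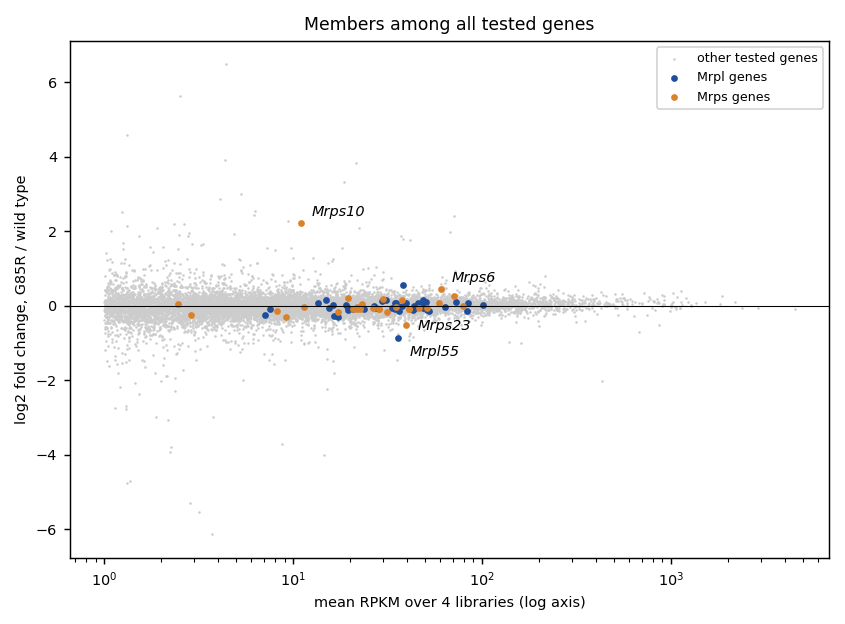
Log2 fold change (vertical axis) against mean RPKM (horizontal log axis) for all 11530 tested entries in gray, Mrpl genes in blue and Mrps genes in orange. The members form a narrow band within the gray cloud, with Mrps10 above it and Mrpl55 below it.

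Subunits of the same particle with other kinds of names were examined as well, from a list of 7 that were all tested. Aurkaip1, a small subunit protein first named for binding Aurora A kinase (chr4:155205381-155207239), had 81.8 and 89.5 RPKM in wild type against 141 and 144 in G85R. It rose with a log2 fold change of 0.74 (SE 0.10, adjusted p = 0.036, limma), and its values did not overlap. It lies on the chromosome that carries the strain 737 insertion, whose place on it is not given in the sources used here. Of its 14 tested neighbors matched by symbol within 250 kb, 1 was called, Ube2j2, at 3.34, 4.60, 0.441 and 0.326 RPKM (log2 fold change -3.07, adjusted p = 0.00475, limma). The member in that stretch, Mrpl20, had a log2 fold change of 0.03, and the 4 tested members of chromosome 4 ranged from -0.11 to 0.15.

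The other 6 did not pass the adjusted test. Ict1, the peptidyl-tRNA hydrolase built into the large subunit, had 40.0 and 40.6 RPKM against 34.6 and 29.3 (log2 fold change -0.34, SE 0.12, adjusted p = 0.358, limma), without overlap. Dap3, the GTP-binding protein of the small subunit, had 50.9, 49.4, 50.5 and 44.9 RPKM (log2 fold change -0.08).

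Genes that act on this ribosome were counted in the same way. Of 11 translation factors tested, 3 were positive and 8 negative (median -0.072), 0 were called and 1 had an unadjusted p under 0.05, the ribosome recycling factor Mrrf (log2 fold change -0.36, SE 0.12, adjusted p = 0.33, limma). Assembly factors (18 tested) had a median of -0.037 with 0 called and 1, Gtpbp5, at an unadjusted p under 0.05. The 9 tested genes that replicate, transcribe or process mitochondrial DNA and RNA had a median of -0.044, with 0 called and 0 at an unadjusted p under 0.05.

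For comparison, complex I subunits had a median of 0.059 (28 of 36 tested higher in G85R, 0 called and 0 at an unadjusted p under 0.05 by limma). In the log-linear test 7 of the 36 had an unadjusted p under 0.05, all higher in G85R, and 0 had an adjusted one. Of all 11530 tested entries, 215 were higher and 125 lower at that unadjusted threshold. Among these 7 complex I genes, Ndufa4 had the lowest p, at 761, 690, 787 and 851 RPKM. This test treats RPKM as counts, so the same fold change gives a lower p at a higher level. The median level was 215 RPKM for complex I and 10.1 RPKM for all tested entries. Whether level accounts for the 7 low p-values was not tested. In the paper, which used this test, genes raised in G85R included nuclear genes mainly for respiratory chain complexes I, IV and V. The paper saw no general rise for most mitochondrial proteins encoded in the nucleus. Cytosolic ribosomal proteins had a median of 0.167 (30 of 39 tested higher, 0 called and 4 at an unadjusted p under 0.05 by limma). The log-linear test called 1 of them, Rplp1, at 46.0, 47.0, 117 and 48.4 RPKM, high in G85R replicate 1 alone. Values of the cytosolic set may be affected by its many near-identical pseudogene copies, which was not examined. Only 39 of its 82 entries reached a mean of 1 RPKM. The difference between these sets and the members was not tested.

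Neighbors that share a start region with a member were compared with it. None of those tested was called by limma. The 2 with an unadjusted p under 0.05 were Ncapd2 beside Mrpl51 (log2 fold change -0.61, adjusted p = 0.407, limma) and Wdfy1, whose start overlaps that of Mrpl44. Wdfy1 had 6.31 and 8.40 RPKM in wild type against 3.26 and 3.94 in G85R (log2 fold change -1.0, adjusted p = 0.0892, limma), while Mrpl44 itself had 35.1, 33.2, 35.4 and 30.5 RPKM (log2 fold change -0.05). Mrps27 and its neighbor Ptcd2 both had -0.19, and Mrpl46 and Mrps11 had 0.09 and -0.04. In 21 members exon bases are shared with another coding gene, and without strand information reads in the shared bases cannot be assigned by strand. Where both genes lie on the same strand, as for Mrps6 and Slc5a3, strand information would not separate such reads either.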

How the data were processed

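Per the labels and the study's methods, the authors mapped single-end reads with Bowtie 0.12.3 against mm9 and a set of splice junctions, and quantified genes with Cufflinks. The deposited values are RPKM per gene, 1 file per library, for 27189 UCSC gene clusters; the libraries carried no strand information. Members and gene lists were chosen with earlier results of these data known.

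RPKM values were tested as log2(RPKM + 0.1) with limma 3.58.1 under R 4.3.3 (empirical Bayes moderation with a trend on mean level, two-sided) over the 11530 entries with a mean RPKM of at least 1, with Benjamini-Hochberg adjustment and a threshold of 0.05. All 4 libraries entered without covariates. Replicates are single mice. RPKM values are not counts, and the estimated reads on genes were derived from them, so no count test was the main one. The tested members had an estimated 44 to 3348 reads per library (median 1060), and the precision of low entries is limited by that number. These estimates are approximate. Within 0.05 of a whole number were 46.5% of them for member entries of 1 transcript and 12.5% for entries of several transcripts.

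Named genes were all members called or with an unadjusted p under 0.05, the 5 highest and 5 lowest levels and the 3 largest rises and falls per subunit, and members not tested. Genes within 250 kb (only entries whose symbol matched an annotated coding gene) and start-site neighbors were added after values had been seen. On simulated libraries with 200 of 11530 genes changed, limma recovered 79.5% of 2-fold and 98.5% of 4-fold changes. False calls were 27 of 186 and 21 of 218, a larger share than the threshold of 0.05 allows. The simulated noise was normal, with a spread smoothed over genes of similar level, so real differences in spread between genes were left out. Alternatives were other pseudocounts, filters and scalings, a replicate block, leaving out each library, other variance settings and a log-linear likelihood ratio test. Positions are from GENCODE on NCBIM37, and promoter windows from RefSeq on GRCm38.p6.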

Additional observations from a re-analysis of the deposited data

How the results depend on the processing

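The number of members called was 2 with pseudocounts of 1 and 0.01, with a minimum mean RPKM of 0.1, after rescaling by the median ratio, with robust variance estimation and at an adjusted p under 0.1, where 80, 73, 95, 66, 101 and 142 of all entries were called in that order. It was 1 (Mrps10) with a minimum of 5, with quantile normalization, without the variance trend and with the log-linear likelihood ratio test (17 of 7849, 39 and 49 of 11530 and 62 of 27189 entries called), and 0 of 77 without a filter, where 112 of all 27189 entries were called; there Mrps10 had an adjusted p of 0.36 and Mrpl55 of 0.365. Without 1 library it ranged from 1 to 3 (78 to 188 of all entries), Mrps10 being called each time. Mrpl55 had an adjusted p of 0.0546 with a minimum of 5, 0.0529 with quantile normalization and 0.0505 and 0.0574 without wild-type replicate 2 and G85R replicate 1; the cause was not tested.

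With a replicate block 5 members were called (Mrps10, Mrpl55, Mrps23, Mrps6 and Mrpl33), and 527 entries of all tested. Deviations of same-numbered replicates correlated at r = 0.22 over all tested entries and 0.43 over the members. The labels name no litter, batch or day for these numbers, so whether same-numbered samples share one is not known. The paper's heatmap showed G85R over wild-type ratios within each replicate number.

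The Mrps median was -0.050 after rescaling by the median ratio and ranged from -0.070 to -0.026 without 1 library; the Mrpl median ranged from -0.026 to 0.003, and members higher in G85R from 28 to 36 (37.8% to 48.6%, against 42.9% to 49.2% of all tested entries). Members without overlap numbered 49 to 56 (66.2% to 75.7%) when a library was left out, against 67.8% to 72.6% of all tested entries, since fewer values then have to separate. With rescaling by the median ratio 33 of the 74 tested members were higher in G85R, and with quantile normalization 30, against 27 in the main fit. Changes of sign were followed gene by gene only for the members named by the rule. Among these, rescaling by the median ratio turned Mrps12 and Mrpl38 to 0.02, and quantile normalization Mrpl38 to 0.02. Without 1 library the log2 fold change also changed sign in Mrpl20 (-0.04 to 0.10), Mrpl28 (-0.05 to 0.17), Mrpl13 (-0.19 to 0.10), Mrpl1 (-0.51 to 0.02), Mrpl41 (-0.03 to 0.14), Mrpl51 (-0.14 to 0.03), Mrps12 (-0.19 to 0.19), Mrps21 (-0.19 to 0.32), Mrps33 (-0.06 to 0.15) and Mrpl38 (-0.03 to 0.03), none of which was called. The median of all tested entries was -0.021, 0.001 after rescaling by the median ratio and -0.003 with quantile normalization, with 45.3%, 50.4% and 49.3% higher in G85R. At 0.0606 to 0.221 RPKM, Mrpl23 was too low for a comparison between genotypes, and the cause of its low value was not tested.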

Other observations

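Within 250 kb of Mrps18a, which was not called itself, the 9 tested genes matched by symbol included 1 called by limma, Tjap1, at 6.11, 7.05, 3.40 and 3.24 RPKM (log2 fold change -0.96, adjusted p = 0.0482 by limma), and Dlk2 at 2.18, 2.42, 0.463 and 0.143 RPKM (log2 fold change -2.70, adjusted p = 0.0509 by limma). Around Mrps23 and Mrps6 none of the 4 and 3 tested genes matched by symbol was called by limma. These stretches were examined after the values of the members had been seen.

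Mrps18c, chosen after its values were seen, had the widest spread between replicates among the members by SE (0.29), with 36.3 and 19.3 RPKM in wild type and 28.9 and 21.8 in G85R.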
